A study of Drosophila melanogaster with 4 samples.

Results

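Along the right arm of chromosome 3 (3R) of Drosophila melanogaster, histone H3 acetylated at lysine 9 and phosphorylated at serine 10 (H3K9acS10P) appeared as many separate, mostly narrow enriched regions. The compact ones outside the Hox complexes are described here. They are the series-level regions on 3R with a midpoint between 1 and 26905053, a width under 6000 bp, and a midpoint outside 2480000 to 2830000 (the Antennapedia complex) and 12480000 to 12800000 (the bithorax complex), in FlyBase r5 coordinates. There were 3462 of them among 15374 series-level regions, or 22.5% of that list. A subset of 287 had midpoints in the 2 Mb of the arm's sequence that face the centromere (1 to 2000000). The regions were chosen by their sequence, position and width in the series-level list, so their number, widths and density in that list are descriptions.

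The study profiled chromatin of Oregon-R embryos, a wild-type laboratory strain, aged 14 to 16 h. It has 2 ChIP samples made with 1 lot of the antibody Ab12181 against H3K9acS10P, and 2 input samples of chromatin without enrichment, 1 for each ChIP sample. Both ChIP and input came from whole embryos fixed in 1.8% formaldehyde. No genotype or treatment was varied, and no label states that the replicates came from different embryo collections. Their spread may therefore be technical. An exact two-sided sign test over 2 replicates has a smallest p of 0.5, and none was run. The lists carry no read counts, so the depth of the libraries is unknown, and no list of the input samples was used here.

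Acetylation of this lysine neutralises its charge and is a mark of active promoters and the genes behind them. Phosphorylation of the neighbouring serine is dense on condensed mitotic chromosomes. In interphase nuclei of flies it is laid down by the kinase JIL-1, a protein of the interbands of polytene chromosomes. An antibody against the doubly modified tail reads molecules that carry both groups. At the age sampled, organs are forming and most cells have stopped dividing. In whole embryos, a region marked strongly in few cells and one marked weakly in many cannot be told apart. The Hox complexes hold the genes that give body segments their identity and are silenced in most cells by Polycomb proteins.

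Of the 3879 series-level regions on 3R, 158 lay beyond the distal limit, 45 in the Antennapedia complex, 26 in the bithorax complex and 188 reached the width limit. The 3462 compact regions thus made up 89.2% of the list's regions on the arm. They numbered 132.0 per Mb and covered 7.16 Mb, or 27.3% of the 26.2 Mb they could lie in. The same rule applied to the replicate lists kept 1048 regions in replicate 1, covering 9.16%, and 2322 in replicate 2, covering 20.9%. The mean covered share was 15.0% ± 8.30 (SD, n = 2). Compact regions were 2.22 times as many in replicate 2 as in replicate 1, and the series-level list held more than either.

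The widths of the compact regions were skewed towards the low end. They ran from 1001 to 5988 bp with a median of 1685.5 bp, and the quartiles were 1255 and 2540 bp. In the replicate lists the median compact width was 2089 bp in replicate 1 and 1966 bp in replicate 2, with narrowest regions of 1304 and 1301 bp. The series-level list therefore held 974 compact regions narrower than any compact 3R region of either replicate. Of these 974 regions, 0 overlapped both replicate lists and 759, or 77.9%, overlapped neither. Over all series-level regions, of any width, 22.5% overlapped both and 34.1% neither.

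No source used here gives the scale of the score, and across lists it is only set side by side or correlated. In the series-level list the authors' score, given once per region, had a median of 0.456 and ranged from 0.114 to 2.06. It did not rise steadily with width. The median was 0.473 in the 408 regions of 1001 to 1100 bp, 0.421 at 1101 to 1300 bp and 0.388 at 1301 to 1500 bp. From there it was higher in each wider class, reaching 0.683 in the 102 regions of 5001 to 5999 bp. The lowest median therefore lay in a middle class and not among the narrowest regions. The replicate lists had a like dip over classes of equal size. In replicate 1 the median score was 0.630 in the narrowest 10% of compact regions, 0.590 in the third class and 0.988 in the widest. In replicate 2 it was 0.561 in the narrowest class, 0.542 in the next and 0.872 in the widest.

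**Figure D1:**
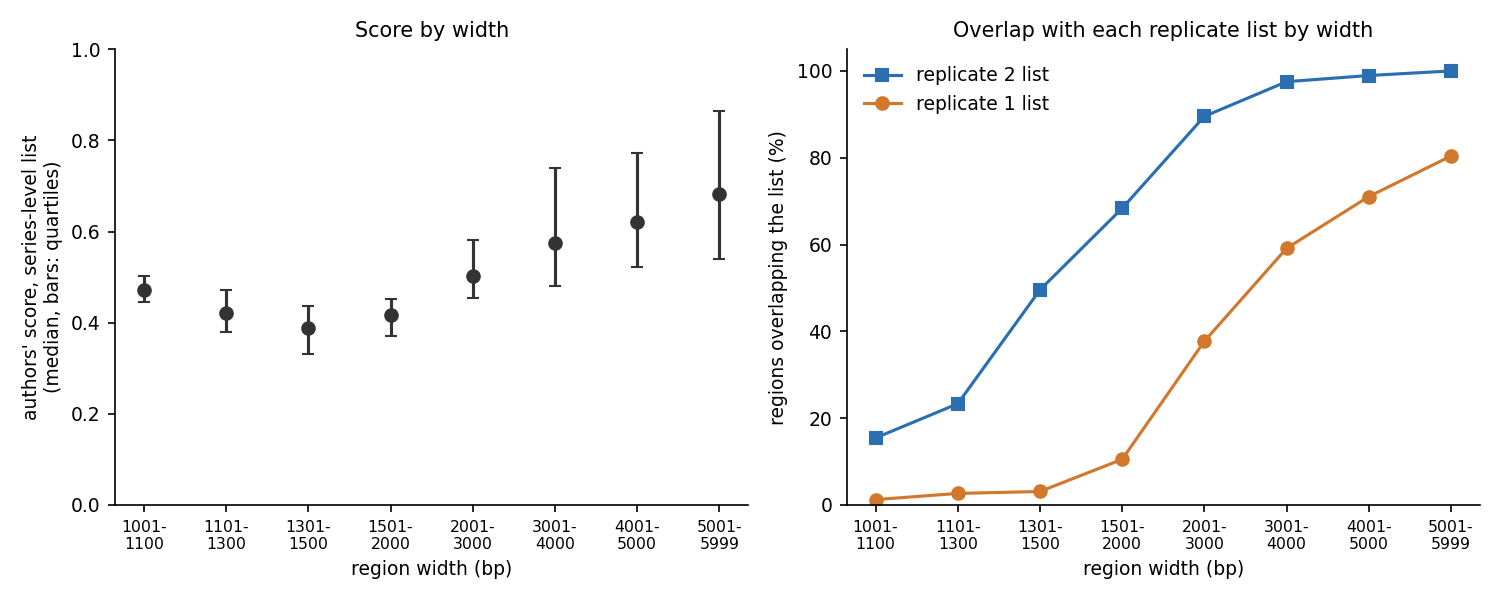
Compact 3R regions of the series-level list in 8 classes of width (bp). Left, the authors' score (points, medians; bars, quartiles), lowest at 1301 to 1500 bp with a median of 0.388; right, the percentage of each class that overlapped the list of each replicate by at least 1 bp, which was 15.4% for replicate 2 and 1.23% for replicate 1 in the narrowest class, and 100% and 80.4% in the widest.

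Scores of the regions nearest the width limit ran from 0.536 to 1.01 below it and from 0.627 to 1.06 above it, so the ranges overlapped. The median score of all 188 regions at or over the limit was 0.747. The widest compact regions were 3R:8857877-8863864 (5988 bp, score 0.538), 3R:12291278-12297249 (5972 bp, 0.539), 3R:731960-737876 (5917 bp, 0.536), 3R:8246554-8252468 (5915 bp, 1.01) and 3R:18312099-18318010 (5912 bp, 0.958). The first of them overlapped replicate 2 alone and the other 4 overlapped both replicates. The first regions past the limit were 6008 to 6066 bp wide, scored from 0.627 to 1.06 and had partners in both replicates. They began with 3R:5258712-5264719 and included the close neighbours 3R:24633844-24639887 and 3R:24641122-24647187. At the edges of the Antennapedia complex, the last compact region before it was 3R:2478076-2479077 (score 0.460) and the first inside it 3R:2481600-2485051 (1.13). On its distal side the first outside was 3R:2837432-2838701 (0.288) and the last inside 3R:2827972-2828972 (0.481). At the bithorax complex, 3R:12468772-12470782 (0.426) lay before it and 3R:12807071-12808346 (0.384) after it, with 3R:12488409-12489703 (0.489) and 3R:12758094-12760879 (0.364) just inside. At the distal limit the last region kept was 3R:26893311-26894512 (0.370), and the first left out was 3R:26904674-26906215 (0.412).

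Overlap with the replicate lists was uneven. The series-level list comes from the same ChIP samples, so some overlap is built in and is no separate support. Of the 3462 compact regions, 675 overlapped a region of both replicates, a share of 19.5% (95% Wilson interval 18.2 to 20.9%). Across all series-level regions, wide ones included, that share was 22.5%. A further 1454 overlapped replicate 2 alone, 88 overlapped replicate 1 alone and 1245 overlapped neither, which is 36.0% (34.4 to 37.6%) beside 34.1% of all series-level regions. At least 1 replicate was overlapped by 64.0%, beside 65.9% of all series-level regions. The limit on width removes regions that overlap most often, so nothing is read from these differences. Neighbouring regions are not independent, and the intervals cover counting error only. With at least 50% of the region required to be covered in each replicate, 15.2% remained, and among regions of 1301 bp or more the share was 27.1%.

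Regions in both replicates were the wide, high-scoring ones. Their median width was 3368 bp and their median score 0.650, against 1211 bp and 0.437 for regions in neither. They held 32.7% of the covered bases while making up 19.5% of the regions. When the 3462 regions were divided by score into 10 classes, 328 of the 347 in the highest class (scores from 0.660) overlapped both replicates, or 94.5% (95% Wilson interval 91.6 to 96.5%). In the class below it (0.542 to 0.660) the share was 46.5%, and in each of the 6 lowest classes, up to a score of 0.478, it lay between 2.59% and 6.07%. The share was thus high in the highest 2 classes, but the highest class was also wider, with a median of 3600 bp against 1452 bp in the lowest class. A wide region is more likely to share 1 bp with another list by chance, and score and width were not separated. The series-level scores come from the same ChIP samples as the replicate lists, so part of this link is built in.

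Within the 675 regions, the regions called in replicate 1 covered less than those called in replicate 2. Depth and caller are unknown, so this describes the lists and not the shape of the mark. Replicate 1 covered a median of 70.5% of the region and replicate 2 a median of 93.9%. For the 639 of these regions with a single, unshared partner in replicate 1, the partner began a median of 343 bp after the region's start and ended 270 bp before its end. For the 591 such regions in replicate 2, the partner began 52 bp inside the start and ended 59 bp inside the end. Partners were split in 27 of the 675 regions in replicate 1 and in 55 in replicate 2, into at most 3 and 2 pieces. In replicate 2, 16 of the 675 had a partner that itself reached 6000 bp.

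Regions with a high score in 1 list tended to have high scores in the others. Series-level scores ran from 0.270 to 2.02, with a median of 0.650. The highest partner score ran from 0.370 to 2.03 in replicate 1 (median 0.718) and from 0.176 to 2.41 in replicate 2 (median 0.795). Spearman's rho between the 2 replicates was 0.59 and Pearson's r 0.70 across the 675 regions. The regions share libraries and chromatin and are not independent replicates, so the correlation is a description. With the series-level score, rho was 0.75 for the 639 regions with a single, unshared partner in replicate 1. It was 0.90 for the 591 such regions in replicate 2. That list's source in the same ChIP samples makes some likeness built in.

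**Figure D2:**
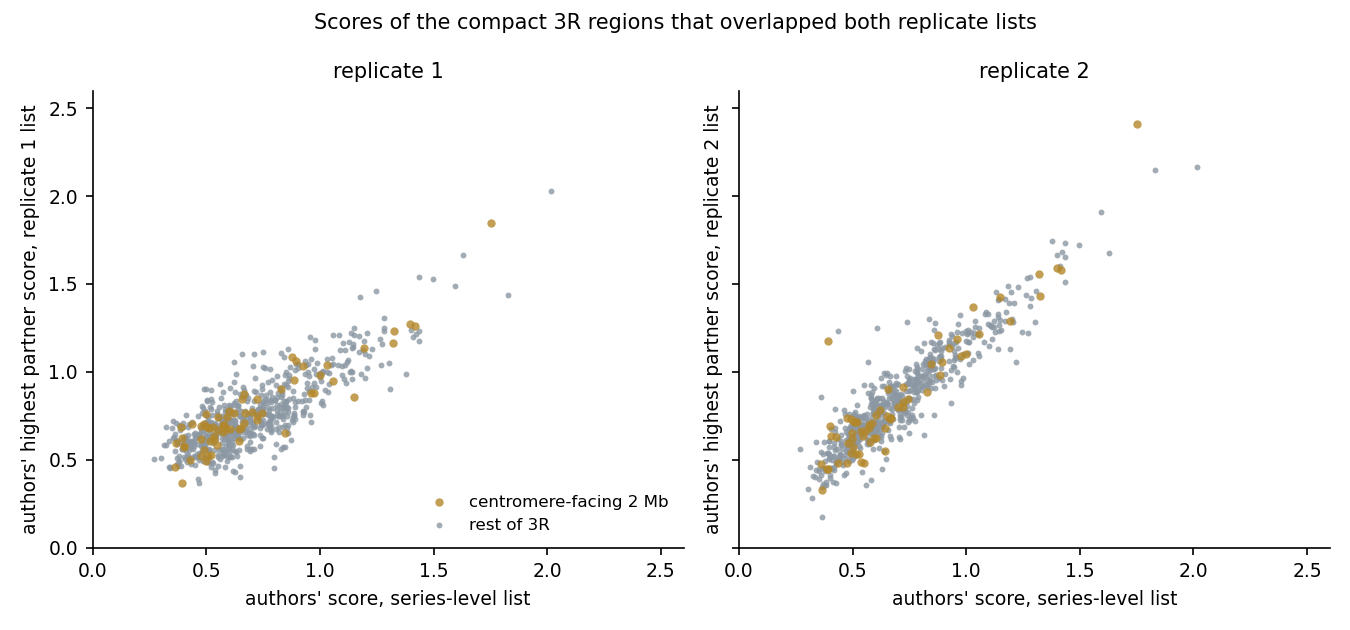
The authors' score of each of the 675 compact 3R regions that overlapped both replicate lists (x axis, series-level list) against the highest score of its partners in replicate 1 (left) and replicate 2 (right); gold points lie in the centromere-facing 2 Mb and grey points in the rest of 3R. Points of both colours follow the same cloud, with 1 gold point at a replicate 2 score of 2.41. No source used here gives the scale of the score.

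The 10 highest-scoring compact regions in both replicates were 2.71 to 5.53 kb wide, and 9 of them had exactly 1 partner in each replicate. 3R:26031607-26035607, of 4001 bp, led with a series-level score of 2.02, and its partners scored 2.03 in replicate 1 and 2.16 in replicate 2. 3R:10727911-10730630 (2720 bp) came next with 1.83, and with 1.44 in replicate 1 and 2.15 in replicate 2. 3R:1447048-1452338 (5291 bp) was the single one of the 10 in the centromere-facing 2 Mb. It scored 1.75, with 1.85 in replicate 1 and, over 2 partners, 2.41 in replicate 2, the highest replicate 2 score of any compact 3R region. The remaining 7 scored from 1.42 to 1.63 and lay at 3R:17121478-17124569, 3R:16645744-16650130, 3R:25685509-25691039, 3R:13622185-13624893, 3R:16675482-16678790, 3R:11611555-11614468 and 3R:19810929-19814185. The regions starting at 16645744 and 16675482 are neighbours on the scale of the arm, and both scored above 1.43. Over the 10, replicate 1 covered at least 65.7% of each region and replicate 2 at least 89.4%.

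The highest score of all compact 3R regions belonged to a region that neither replicate list held. 3R:2242425-2243425, at the minimum width of 1001 bp, scored 2.06. 3R:20752869-20753879 scored 1.96 and 3R:8973491-8974501 scored 1.47, both 1011 bp wide and without a partner. Next in this class came 3R:13400865-13401865 (0.977) and 3R:5109036-5110047 (0.945), of 1001 and 1012 bp. Of the 16 compact regions scoring 1.4 or more, 13 overlapped both replicates and were at least 2481 bp wide, and the other 3 were the first 3 of these narrow regions. Of the 296 scoring 0.7 or more, 287 overlapped both replicates and 9 overlapped neither. Those 9 were 1001 to 1159 bp wide, whereas the narrowest of the 287 was 2206 bp. High scores thus fell on 2 groups of widths that did not overlap.

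Along the arm the compact regions were spread everywhere, with a few sparse stretches. In the 49 full 500 kb windows outside the Hox complexes the series-level list held 65.2 ± 14.5 regions (SD over windows), from 39 to 89. The most, 89, were in 6000001 to 6500000 and in 17000001 to 17500000. The fewest, 39, were in 10500001 to 11000000 and in 21500001 to 22000000. Replicate 1 held 19.7 ± 9.07 regions per window, from 5 to 41, and replicate 2 held 43.9 ± 12.0, from 18 to 67. The 2 windows richest in the series-level list held 12 and 18 regions in replicate 1, both below its mean, and 41 and 49 in replicate 2, on either side of its mean. Window medians of score stayed between 0.429 and 0.495 in the series-level list.

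**Figure D3:**
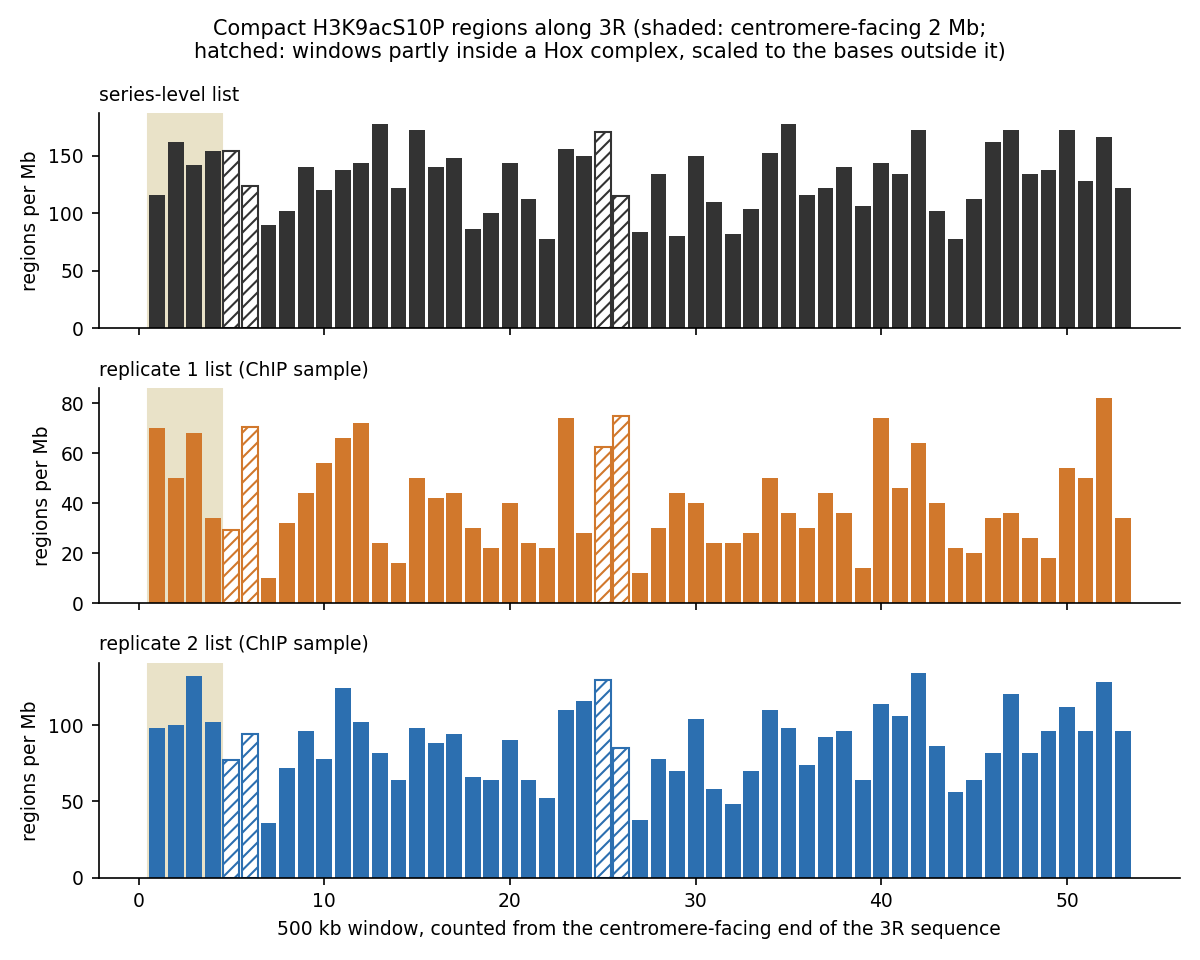
Compact H3K9acS10P regions per Mb (y axis) in each full 500 kb window of 3R, counted from the centromere-facing end, in the series-level list and in the lists of both ChIP replicates; hatched bars are windows partly inside a Hox complex, scaled to the bases outside it. The 4 shaded windows of the centromere-facing 2 Mb hold 58 to 81 regions each in the series-level list, within the range of 39 to 89 over all full windows outside the Hox complexes.

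At a finer scale, the 260 bins of 100 kb outside the Hox complexes held from 1 to 26 compact regions, with a median of 13 and none empty. The fullest was 4100001 to 4200000, with 26 regions covering 51.2% of it, and with 9 regions in replicate 1 and 18 in replicate 2. The emptiest was 8600001 to 8700000, with 1 series-level region and 0 in each replicate. Empty bins numbered 41 in replicate 1 and 3 in replicate 2. Between neighbouring compact regions the median gap was 2411 bp, and the quartiles were 716.5 and 6877.5 bp. Of 3459 gaps outside the Hox complexes, 658 were 500 bp or less, and 4 pairs of regions abutted. Joining regions 500 bp or less apart left 2289 single regions and 515 runs, which held 33.9% of all compact regions. The longest runs had 5 members. They were 3R:20756825-20775249, of 18.4 kb, 3R:267779-282087, of 14.3 kb, and 3R:16455824-16469980, of 14.2 kb. The first of these lies next to the narrow region at 20752869 that neither replicate held.

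The longest gaps of the series-level list were nearly empty in the replicate lists. This is largely built in and is no separate support for the gaps. Of the compact 3R regions, 98.9% in replicate 1 and 96.7% in replicate 2 overlapped a series-level region. The gap 3R:4672501-4756408 spanned 83.9 kb, 3R:21933541-22012834 spanned 79.3 kb, 3R:4984023-5057578 spanned 73.6 kb and 3R:12981037-13048754 spanned 67.7 kb. None of these 4 held a region of any width in any of the 3 lists. The gap 3R:15753324-15823647, of 70.3 kb, held 1 series-level region over the width limit and 1 region of each replicate. In all, 18 gaps exceeded 50 kb. In replicate 1 the longest gap, 3R:3358465-3711754, was 353 kb long and held 12 regions of replicate 2. In replicate 2 the longest was 3R:8546144-8762448, of 216 kb, which surrounds the emptiest bin and held 1 region of replicate 1.

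The centromere-facing 2 Mb carried somewhat more of the mark than the rest of 3R in each list. The series-level list had 143.5 compact regions per Mb there and 131.0 per Mb in the rest, a difference of 12.5 per Mb. Replicate 1 had 55.5 per Mb in the centromere-facing 2 Mb and 38.7 in the rest, and replicate 2 had 108.0 there and 86.9 in the rest. The difference over the replicates was 19.0 ± 3.02 regions per Mb (SD, n = 2). Compact regions covered 30.1% of the centromere-facing 2 Mb and 27.1% of the rest in the series-level list, 13.1% of it and 8.83% of the rest in replicate 1, and 25.9% of it and 20.5% of the rest in replicate 2. With wide regions counted too, the series-level list covered 40.6% of the centromere-facing 2 Mb and 32.6% of the rest.

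The excess was about as large as the SD over windows, or smaller. In the series-level list the 4 full windows of the centromere-facing 2 Mb averaged 71.8 ± 10.0 regions and the other 45 averaged 64.6 ± 14.8 (SD over windows). In replicate 1 the mean was 27.8 ± 8.46 in the centromere-facing windows and 19.0 ± 8.86 in the others, and in replicate 2 it was 54.0 ± 8.04 in the centromere-facing windows and 43.0 ± 11.9 in the others. When series-level regions below the list's median score were left out, the difference was 2.29 per Mb, with 1440 of the 3462 compact regions left. Of the 13 consecutive blocks of 2 Mb, this one was the fourth by number of compact regions per Mb in the series-level list, the second in replicate 1 and level with the block 24000001 to 26000000 at the top in replicate 2. By bases in compact regions it was the third in the series-level list, the second in replicate 1 and the first in replicate 2. By bases covered at any width it was the second of the 13 in each of the 3 lists. The block next to it, 2000001 to 4000000, was the lowest by number in both replicates and by covered bases at any width in all 3 lists, with 24.5% of its bases outside the Antennapedia complex covered in the series-level list. The 2 Mb subset is thus among the more densely marked parts of 3R, and whether it is the densest depends on the list and the measure. It was picked with its density known, so no test was made.

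Within the centromere-facing 2 Mb the number of regions varied from window to window, with a smaller SD than in the rest of 3R. The 4 windows of 500 kb, starting from the centromere side, held 58, 81, 71 and 77 series-level regions. Replicate 1 held 35, 25, 34 and 17 in them, and replicate 2 held 49, 50, 66 and 51. The first window thus had the fewest series-level regions but the most of replicate 1. Compact regions in the subset had a median width and a median score close to those in the rest. Their median width was 1776 bp and their median score 0.451, against 1679 bp and 0.456 in the rest. In replicate 1 the median score was 0.695 in the subset and 0.719 in the rest, and in replicate 2 it was 0.640 in the subset and 0.648 in the rest. At any width, the series-level median width was 1882 bp in the subset and 1741 bp in the rest. Among compact regions in both replicates, the series-level medians were 2756 bp and 0.602 in the subset, against 3392.5 bp and 0.656 in the rest. Both replicates were overlapped by 65 of the 287 regions, or 22.6% (95% Wilson interval 18.2 to 27.8%), against 19.2% (17.9 to 20.6%) of the 3175 others. Neighbouring regions are not independent, so nothing is read from these intervals about a difference. Neither replicate was overlapped by 32.4% in the subset and by 36.3% in the rest. Gaps had a median of 2355.5 bp in the subset and 2419 bp in the rest.

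The highest-scoring regions of the subset in both replicates lay in its distal part, from 1306108 to 1835153. After 3R:1447048-1452338, described above, came 3R:1604142-1606622 (2481 bp), with a score of 1.42, 1.26 in replicate 1 and 1.58 in replicate 2. 3R:1415386-1419565 (4180 bp) scored 1.40, 3R:1831392-1835153 (3762 bp) scored 1.32 and 3R:1306108-1310523 (4416 bp) scored 1.32. Their partners scored from 1.17 to 1.27 in replicate 1 and from 1.43 to 1.59 in replicate 2. The last compact region of the subset was 3R:1998360-2000923 (2564 bp, score 0.542), and the next one outward was 3R:2017355-2018490 (1136 bp, score 0.383), with 16.4 kb between them.

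The centromere-facing ends of 2L and 3L gave other values. The same width limit was applied there, with 1 Mb left out at the telomere-facing end. The last 2 Mb before the centromere-facing end had 143.5 compact regions per Mb on 3R, against 63.5 on 2L and 54.0 on 3L in the series-level list. Replicate 1 had 55.5 on 3R, against 24.0 on 2L and 12.5 on 3L, and replicate 2 had 108.0 on 3R, against 41.5 on 2L and 37.5 on 3L. Relative to the rest of its own arm, this end was higher by 12.5 regions per Mb on 3R and lower on the other arms, with differences of -41.8 on 2L and -67.1 on 3L. The signs were the same in both replicates. With 2L and 3L pooled, the excess of 3R at this end was 84.8 regions per Mb in the series-level list, and 29.0 when regions below the median score of the list were left out. Over the whole 3R stretch that filter left 1440 of 3462 compact regions, so the values with and without it are not on the same scale. Each arm is 1 stretch of chromosome, no test over arms was possible, and the files do not say how near to the centromere each sequence reaches.

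**Figure D4:**
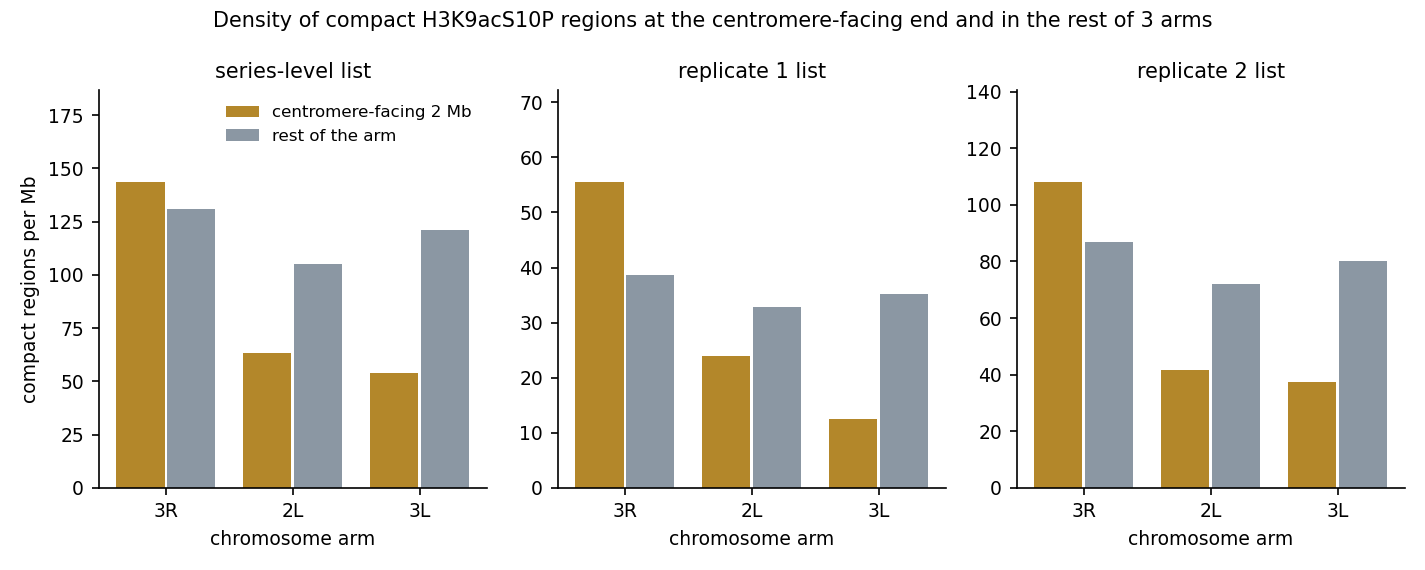
Compact H3K9acS10P regions per Mb (bars from 0) in the centromere-facing 2 Mb (gold) and the rest (grey) of 3R, 2L and 3L, in the series-level list and in each replicate list, each with its own y axis. On 3R the gold bar is the higher of its pair in all 3 lists (143.5 per Mb, against 131.0 in the rest, in the series-level list), and on 2L and 3L it is the lower.

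Over whole arms the compact regions of 3R were more numerous per Mb than those of 2L and 3L in each list. Arm 2R and chromosome X were not compared, and 3R was counted without its Hox complexes. The series-level list had 132.0 per Mb on 3R, against 101.5 on 2L and 115.4 on 3L. Outside the centromere-facing 2 Mb of each arm it had 131.0 on 3R, against 105.3 on 2L and 121.1 on 3L. Replicate 1 had 39.9 on 3R, against 32.0 on 2L and 33.3 on 3L, and replicate 2 had 88.5 on 3R, against 69.1 on 2L and 76.5 on 3L. Median width was 1685.5 bp on 3R, 1683.5 bp on 2L and 1672 bp on 3L, and median score was 0.456 on 3R, 0.454 on 2L and 0.460 on 3L. Both replicates were overlapped by 19.5% on 3R, 19.4% on 2L and 18.7% on 3L. With 2L and 3L pooled, the excess of 3R was 23.3 regions per Mb in the series-level list. It was 9.91 when regions below the list's median score were left out. After neighbours were merged and the width limit applied again, it was 12.7. These settings left 1440 and 2545 of the 3462 compact 3R regions. The number of regions differs between the settings, so the 3 values are not on the same scale. None of these differences between arms was tested. Counted at any width, series-level regions numbered 139.1 per Mb and covered 33.2% on 3R outside the 2 Hox complexes. In the Antennapedia complex they numbered 128.6 per Mb and covered 21.4%, and in the bithorax complex they numbered 81.2 per Mb and covered 14.0%.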

How the data were processed

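The aligner was Bowtie 0.12.7, per the submitters' processing notes. The genome build is FlyBase r5, per the file headers. The authors deposited 1 list of enriched regions per ChIP replicate and 1 for the series, each region with a score. No source used here gives the caller, its threshold, the scale of the score or the way replicates were combined. Lists hold no read counts, so depth and counting precision are unknown.

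Regions were assigned by midpoint, with 1-based coordinates. Overlap meant at least 1 bp. Shares carry 95% Wilson intervals. Python 3.11.15, NumPy 2.4.6, pandas 2.3.3, SciPy 1.17.1 and Matplotlib 3.10.9 were used. The overlap step was tested on shortened copies of compact 3R regions, and the merging step on made-up regions. No hypothesis test was run, because the rule that chose the regions used the same lists.

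Members and comparisons were chosen with earlier results of these data known. Regions named are the highest-scoring in both replicates (10), in neither (5) and in both within the centromere-facing 2 Mb (5), those nearest the limits, the longest gaps, and the fullest and emptiest windows. The 100 kb bins and the runs of regions were chosen after seeing the data. The gene table used here is on Release 6 of the genome and no r5 annotation or sequence was used here, so regions carry no gene names or sequences.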

Additional observations from a re-analysis of the deposited data

How the results depend on the processing

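Of 34 recomputed values, 15 stayed within the spread between replicates, the interval of the share or 1.5 times the count, 19 moved further, and 0 changed sign. Part of this tally was fixed in advance. The covered share of 1 replicate always lies within the SD of the mean of the same 2 replicates. Counts and shares cannot change sign. Without the regions that score below their list's median, 1440 compact regions remained, covering 14.5%. The centromere-facing excess on 3R was then 2.29 regions per Mb. The excess of 3R over 2L and 3L pooled was 23.3 per Mb as reported and 9.91 under that limit, and at the centromere-facing ends it was 84.8 and 29.0. Merging all regions 500 bp or less apart gave 12.7 and 58.5 for these excesses. The centromere-facing excess on 3R was 15.1 per Mb after merging, above the 12.5 as reported. The width limit was applied again after merging, so merged regions of 6000 bp or more dropped out. On 3R this left 2545 compact regions, covering 21.6%. The settings leave different numbers of regions, so their differences per Mb are not on the same scale. The 3R centromere-facing excess was 7.32 per Mb in the first 1 Mb, 19.1 with a limit of 10000 bp and 18.8 with no width limit. Overlap with both replicates was 15.2% with 50% of the region covered and 27.1% for regions of 1301 bp or more.

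With 1 replicate left out, overlap was 22.0 to 61.5%, the covered share 9.16 to 20.9%, the centromere-facing excess 16.8 to 21.1 per Mb, that over 2L and 3L 7.30 to 15.6, and that at the ends 37.2 to 68.5. These ranges use each replicate's own list. The cause of these moves was not tested. The comparisons with 2L and 3L, the value with no width limit, that for regions of 1301 bp or more and one without the adjoining 2 Mb were chosen after seeing the data. No paired analysis was possible because the results come from no test; differences within each replicate are given as values, and no list of the input samples was used.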

Other observations

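Compact 3R regions of the replicates overlapped the series-level list about as often as all regions of those lists did. In replicate 1, 1036 of 1048 overlapped a series-level region, or 98.9%, beside 98.2% of all 4619 regions of that list. In replicate 2, 2245 of 2322 did, or 96.7%, beside 96.9% of all 10280. A series-level region of 6000 bp or more was met by 264 of the 1048 in replicate 1, or 25.2%, beside 27.7% of that whole list, and by 148 of the 2322 in replicate 2, or 6.37%, beside 12.5% of that whole list. The whole lists include wide regions. The 12 regions of replicate 1 and 77 of replicate 2 without a series-level partner had 0 partners in the other replicate. They were narrow, with median widths of 1398 bp and 1414 bp. The highest-scoring was 3R:17701118-17702442 in replicate 2 (score 0.980), and in replicate 1 it was 3R:9722841-9724196 (0.765). In the centromere-facing 2 Mb there were 0 such regions of replicate 1 and 9 of replicate 2.

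The lowest series-level scores among the compact 3R regions were 0.114 at 3R:13472846-13474319 and 0.116 at 3R:21838485-21840041, both in neither replicate, and 0.139 at 3R:20492204-20493859, which overlapped replicate 2 alone. None of these 3 was among the narrowest, with widths of 1474, 1557 and 1656 bp.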
